A study of Mus musculus with 42 samples.

Results

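The vas deferens carries sperm from the epididymis to the urethra, and here its RNA was compared between male mice that lacked Hoxa9, Hoxa10 and Hoxa11 and also carried 1 mutant copy of Hoxd9, Hoxd10 and Hoxd11 (Hoxa9,10,11-/-d9,10,11+/-, called AKDH) and male mice that lacked the 3 Hoxa genes only (Hoxa9,10,11-/-, called AKO). The groups were defined by the labels alone, and the comparison was chosen with earlier results of these data known. It holds 6 of the 42 whole-transcript arrays of the study, 3 AKDH and 3 AKO, and 19938 genes. Both groups are labelled homozygous mutant for the 3 Hoxa genes, so the labelled difference between them is 1 copy of the 3 Hoxd genes. Vas deferens arrays of the reciprocal compound mutant (Hoxa9,10,11+/-d9,10,11-/-, AHDK), of mice that lacked only the 3 Hoxd genes (Hoxd9,10,11-/-, DKO) and of wild type (WT), 3 of each, entered the same fit and served for comparison, as did uterus arrays of the same 5 genotypes. All mice were adults of a mixed CD1/129 background, collected at 3 to 7 months of age, and the titles number the arrays of a group as biological replicates. How the mutant alleles were built, whether litters were shared, and when the arrays were scanned is not stated in the labels.

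Hox genes encode homeodomain transcription factors whose order along each cluster follows their domains along the body axis. Paralogs, the genes at the same place in different clusters, bind similar DNA, and loss of one is often covered in part by another. In the mouse, posterior Hoxa genes are known to give the vas deferens its identity, and their loss shifts the duct toward the epididymis, the coiled duct upstream of it in which sperm mature.

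Each value is a log2 value relative to the middle one of the 21 male arrays, so it shows differences between arrays and not the level of one gene against another. Differences are log2 differences between group means (AKDH minus AKO) and carry the SE of the limma fit, and genes with an adjusted p below 0.05 over all 19938 are named as called. AKDH replicate 3 stood apart. The SD of its values over all genes was 0.458, against 0.186 to 0.259 in the other 5 arrays, and 241 of its genes lay above 2, against 12 to 38 in the others. Its sperm and spermatid list averaged 1.28, against -0.58 and -0.41 in AKDH replicates 1 and 2 and -0.32, -0.32 and -0.14 in AKO. Its motile cilia list averaged 1.28 as well, against -0.21 and -0.10 in the other AKDH arrays and 0.06, -0.05 and 0.26 in AKO. For that reason results are also given without it.

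Among the called genes, the largest rise was that of Serpina3b, a serine protease inhibitor gene of a family expanded in the mouse, the largest fall was that of Svs3b, a seminal vesicle secretory protein gene, and the smallest p was that of Ndufaf1, an assembly factor of mitochondrial complex I. The 250 bases before the first listed start of these 3 genes are shown, and the genes were taken for these ranks alone. Sequences are from RefSeq, build GRCm38.p6, and lie at chr12:104127746-104127995 on the + strand, chr2:164256644-164256893 on the - strand and chr2:119662835-119663084 on the - strand. Capitals mark matches to a posterior Hox motif (TTTATNG) in Serpina3b and Svs3b and to the ETS core (CCGGAA) in Ndufaf1, on either strand.
Serpina3b: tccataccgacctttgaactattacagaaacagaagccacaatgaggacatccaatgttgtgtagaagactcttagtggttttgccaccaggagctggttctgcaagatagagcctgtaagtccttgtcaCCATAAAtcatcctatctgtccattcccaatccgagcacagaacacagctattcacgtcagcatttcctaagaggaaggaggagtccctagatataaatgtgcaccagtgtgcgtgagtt
Svs3b: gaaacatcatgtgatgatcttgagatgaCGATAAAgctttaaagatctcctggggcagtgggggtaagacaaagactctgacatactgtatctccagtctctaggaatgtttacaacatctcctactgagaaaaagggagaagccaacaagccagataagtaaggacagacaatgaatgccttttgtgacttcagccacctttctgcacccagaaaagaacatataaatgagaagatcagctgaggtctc
Ndufaf1: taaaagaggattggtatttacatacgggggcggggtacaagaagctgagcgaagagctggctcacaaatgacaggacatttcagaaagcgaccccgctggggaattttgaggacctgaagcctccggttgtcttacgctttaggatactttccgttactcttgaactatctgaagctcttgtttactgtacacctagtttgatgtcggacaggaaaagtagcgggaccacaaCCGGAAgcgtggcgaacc
Counting back from the start, the matches begin at -120, -222 and -18 in the order shown. Over 250 bases, the TTTATNG motif was in 9.46% of the 74 genes called higher that have a promoter entry, in 7.91% of the 139 called lower, and in 8.62% of all 15614 tested genes with an entry. The ETS core was in 31.1%, 26.6% and 16% of the same promoters, whose median G and C content was 58.4%, 58% and 56.4%. A second posterior Hox form (TTTACGAC), which no match of the first can contain, was in 0 promoters of genes called higher, 1 of genes called lower and 0.237% of all. A match is a string of letters and not a binding site.

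AKDH differed from AKO mostly by small steps. Of 19938 genes, 258 were called (1.29%), 89 higher in AKDH (0.446%) and 169 lower (0.848%), while 2824 had an unadjusted p below 0.05. Of the called genes, 207 differed by less than 0.5, 44 by 0.5 to 1 and 7 by 1 or more, and the median over all genes was -0.02. In every called gene the 3 AKDH values lay apart from the 3 AKO values, which was so for 20.4% of all genes. Without AKDH replicate 3, 240 genes were called (1.2%), 135 higher (0.677%) and 105 lower (0.527%). The calls of the 2 fits shared 153 genes, 69 higher and 84 lower, and all 258 genes kept their sign.

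The split between rises and falls depended on the scaling, and the number of calls depended on single arrays. With each array's median set to 0 the counts were 144 higher and 137 lower, and after quantile normalisation 247 higher and 237 lower. Leaving out AKDH replicate 1 left 52 calls, and leaving out AKO replicate 1, 2 or 3 left 72, 88 or 56, and 191 genes were called without AKDH replicate 2. When limma was fitted to the 6 arrays alone, 0 genes were called and 2579 had an unadjusted p below 0.05.

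**Figure D1:**
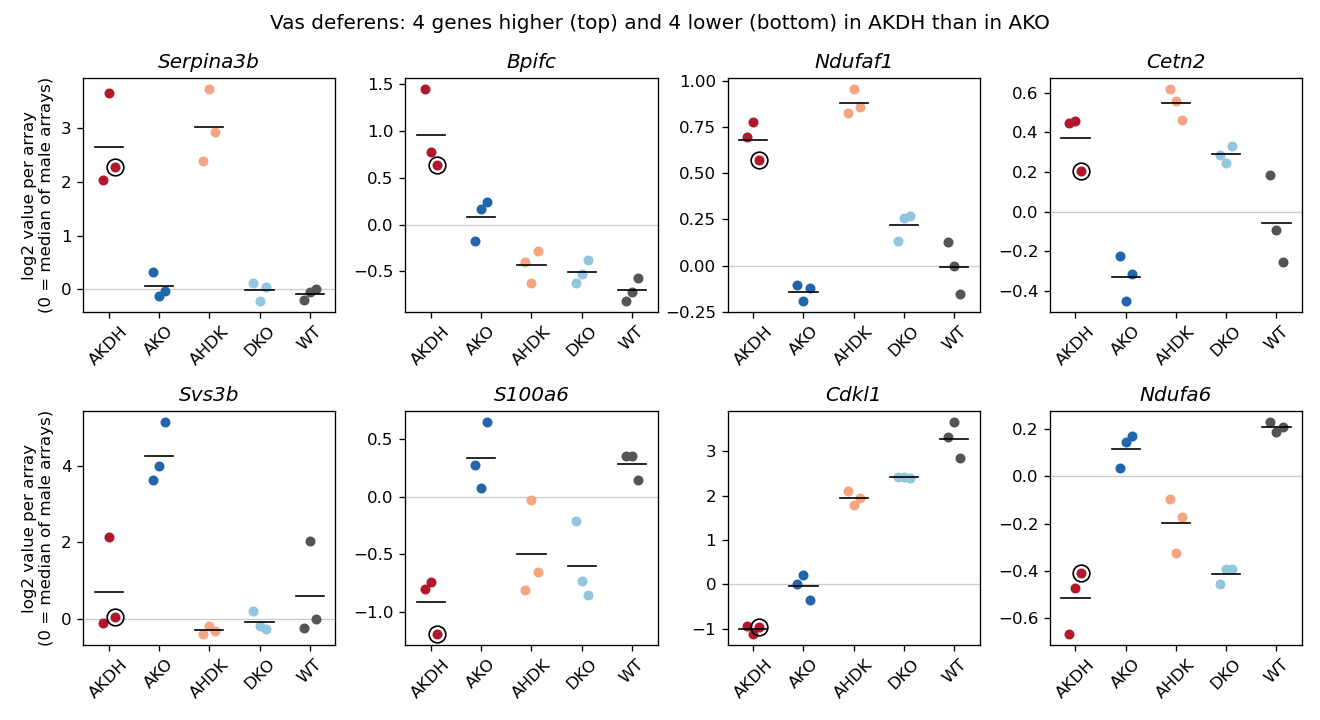
Log2 value of 8 genes in each vas deferens array (0 is the median of the male arrays), with 1 point per array, a black line at the mean of each group and a ring around AKDH replicate 3. The top row shows genes called higher and the bottom row genes called lower in AKDH than in AKO. Serpina3b was high in AKDH and AHDK and near 0 in AKO, DKO and WT.

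The largest rise was that of Serpina3b, at 2.03, 3.64 and 2.28 in AKDH, against 0.32, -0.12 and -0.04 in AKO. All 3 AKDH arrays were far above all 3 AKO arrays, a difference of 2.60 (SE 0.38, adjusted p = 0.0108). Without AKDH replicate 3 the difference was 2.78 (adjusted p = 0.0175). The reciprocal compound mutant was also high, in arrays that the AKDH minus AKO difference does not use, with 2.39, 3.73 and 2.93 in AHDK, against 0.12, -0.22 and 0.05 in DKO. There the difference was 3.03 (adjusted p = 0.0102), while WT stood at -0.20, -0.04 and 0.00. Both compound mutants were high and both single mutants were at the WT level of this scale, where DKO minus WT was 0.06 (adjusted p = 0.966). The test of the difference between AKDH minus AKO and DKO minus WT gave 2.53 for this gene, with an adjusted p of 0.424. In uterus AKDH minus AKO was 0.08, and the vas difference exceeded it by 2.52 (adjusted p = 0.0258). Close copies of this gene lie beside it in the mouse genome, and whether they share the probe set's signal was not tested.

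Bpifc, a gene of the family of lipid-binding BPI fold proteins, was at 1.45, 0.77 and 0.63 in AKDH, against -0.18, 0.17 and 0.24 in AKO. Every AKDH array was higher than every AKO array (0.87, SE 0.19, adjusted p = 0.0429). It was below 0 in all arrays of AHDK, DKO and WT. Cyp17a1, the enzyme that turns progestogens into androgen precursors, was at 2.95, 1.53 and 0.96 in AKDH, against 0.00, 0.80 and -0.18 in AKO. Its groups did not overlap either, but the difference of 1.61 was not called with all arrays (adjusted p = 0.0797). It was 2.04 without AKDH replicate 3 (adjusted p = 0.0287), and AHDK, DKO and WT lay between -1.62 and -1.02.

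Svs3b was at -0.11, 2.13 and 0.03 in AKDH, against 3.62, 3.98 and 5.15 in AKO. AKO stood alone at the top, since 1 WT array reached 2.03 and all AHDK and DKO arrays were at or below 0.20. The fall in AKDH was -3.57 (SE 0.66, adjusted p = 0.0239), and without AKDH replicate 3 it was -3.24 and no longer called (adjusted p = 0.0592). The 19 measured genes of the seminal vesicle and prostate secretion list had a median of -0.22, with 16 below 0 and Svs3b the 1 called gene. The list averaged 0.18, 0.93 and 0.70 in AKDH, against 1.06, 1.14 and 1.81 in AKO, and 1 WT array reached 1.03. In tissue RNA, fewer cells of a type and less RNA per cell cannot be told apart, and whether carry-over of a neighbouring gland moved these values was not tested.

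The list of genes of the vas deferens epithelium had 25 measured members, of which 2 were called lower (Crygc and Cdkl1) and 0 higher, with 16 below 0 and 9 above. Of all genes, 0.848% were called lower and 57.9% lay below 0. Akr1c12, an aldo-keto reductase gene of that list, was at 0.75, 0.27 and 0.32 in AKDH, against -0.02, -0.15 and -0.51 in AKO. Its groups did not overlap, and its difference of 0.67 was not called (adjusted p = 0.0561). Without AKDH replicate 3 it was 0.73 and not called either (adjusted p = 0.0667). Calls came with array medians set to 0 (0.0396), after quantile normalisation (0.0401) and with array weights (0.0318). Crygc, Cdkl1 and Slc39a8, all higher in WT vas deferens than in WT epididymis, fell. Crygc, a gamma-crystallin gene, was at -1.60, -1.46 and -1.69 in AKDH, against -0.65, 0.00 and 0.04 in AKO. The AKDH arrays were the lowest of all 15, with a difference of -1.38 (SE 0.27, adjusted p = 0.0329, and 0.0712 without AKDH replicate 3). Cdkl1, a cyclin-dependent kinase-like gene, was at -0.94, -1.12 and -0.95 in AKDH, against 0.00, 0.21 and -0.34 in AKO. AHDK was at 2.10, 1.78 and 1.95, DKO at 2.41, 2.42 and 2.41, and WT at 3.33, 3.66 and 2.86. The groups formed steps that did not overlap, and AKDH was the lowest (-0.96, SE 0.18, adjusted p = 0.025, and 0.0454 without AKDH replicate 3). Slc39a8, a zinc and manganese transporter, was at -1.45, -0.99 and -1.43 in AKDH, against -0.70, 0.00 and 0.18 in AKO. It too was lower in every AKDH array (-1.12, SE 0.21, adjusted p = 0.0244), and its call was lost without AKDH replicate 3 (adjusted p = 0.0592).

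Over the whole segment program the additional step was small. For comparison, 0.848% of all genes were called lower and 0.446% higher. Of 84 genes that were higher in WT vas deferens than in WT epididymis (a log2 difference of 2 or more and an adjusted p below 0.01), 3 were called lower and 0 higher, and their median was -0.20, or -0.12 without AKDH replicate 3. Of 216 genes higher in WT epididymis, 1 was called higher, the predicted gene Gm4988, and 0 lower, with a median of 0.12. Without that array 4 were called higher and the median was 0.013, and 2 of the vas genes were called lower. Against the WT vas arrays, the vas genes had a median of -1.5 in AKDH and -1.2 in AKO, and the epididymis genes 1.4 in AKDH and 1.2 in AKO. Those WT arrays also helped choose the genes, which by itself pushes such medians in these directions. The 25 measured genes of the vas epithelium list averaged -0.06, -0.11 and -0.14 in AKDH and 0.00, 0.08 and 0.17 in AKO, while WT lay between 0.68 and 0.79. Neither of the epididymal secretion lists, of 27 cauda and 31 proximal genes, had a called member, and their medians were -0.12 and -0.09.

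Genes of the mitochondrial respiratory chain, in which complexes I to IV pass electrons to oxygen and ATP synthase uses the resulting proton gradient, were called in both directions. Of the 25 genes of the oxidative phosphorylation list, 2 were called higher and 5 lower, against 0.446% and 0.848% of all genes. Below 0 lay 19 of the 25 (57.9% of all genes did). Ndufaf1 was at 0.70, 0.78 and 0.57 in AKDH, against -0.11, -0.19 and -0.12 in AKO. The groups were far apart relative to their spread (0.82, SE 0.08, adjusted p = 0.00213), and the value without AKDH replicate 3 was 0.88 (adjusted p = 0.00212). AHDK was higher still at 0.83, 0.96 and 0.86, against 0.13, 0.26 and 0.27 in DKO, a difference of 0.66 (adjusted p = 0.00693). Sdha, the flavoprotein subunit of complex II, was at 0.41, 0.38 and 0.33 in AKDH, against -0.13, 0.00 and -0.08 in AKO. It rose by 0.44 (SE 0.05, adjusted p = 0.00397), and it was likewise higher in DKO than in WT, by 0.43 (adjusted p = 0.00201). Atp5a1, the alpha subunit of ATP synthase, rose by 0.23 (adjusted p = 0.0329, and 0.0592 without AKDH replicate 3). Atp5md, a small subunit of the same enzyme, rose by 0.48 (adjusted p = 0.0338).

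Among the genes called lower, Ndufa6, an accessory subunit of complex I, was at -0.67, -0.47 and -0.41 in AKDH, against 0.04, 0.14 and 0.17 in AKO. No AKDH array came near the AKO range (-0.63, SE 0.07, adjusted p = 0.0055). Uqcrc1, a core subunit of complex III, was at -0.23, -0.19 and -0.23 in AKDH, against 0.27, 0.15 and 0.16 in AKO. It fell by 0.41 (SE 0.05, adjusted p = 0.00792), and Atp5o, a stalk subunit of ATP synthase, fell by 0.35 (SE 0.05, adjusted p = 0.00792). Atp5g3, which encodes the membrane ring of that enzyme, fell by 0.40 (adjusted p = 0.0145), Ndufs3 of complex I by 0.30 (adjusted p = 0.0225) and cytochrome c1, Cyc1, by 0.30 (adjusted p = 0.0429). The calls of Ndufs3 and Cyc1 were lost without AKDH replicate 3 (adjusted p = 0.0548 and 0.0741). The median of the oxidative phosphorylation list was -0.17. Without AKDH replicate 3 it was -0.12, with 1 gene called higher and 2 lower.

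**Figure D2:**
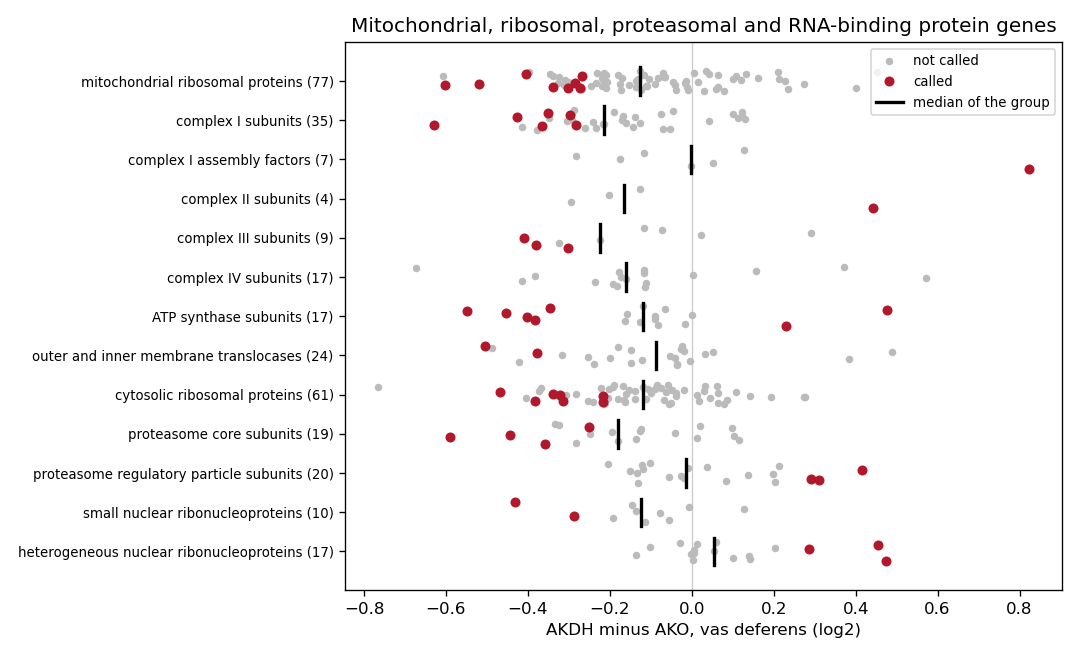
AKDH minus AKO log2 difference of each measured gene of 13 groups that share a symbol pattern, with called genes in red, the others in grey and a black line at the median of each group. The number of measured genes stands in brackets. Called genes of the groups for complexes I and III, both ribosomes and the proteasome core lie left of 0. Called genes of the groups for the proteasome regulatory particle and hnRNPs lie right of it.

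Wider groups of genes were formed from symbol patterns after these values had been seen, so their counts are a description. Of all genes, 0.446% were called higher and 0.848% lower. Of 35 genes with complex I subunit symbols, 6 were called lower and 0 higher, and the median was -0.21, against -0.02 over all genes. That group holds Ndufa4 (-0.36, adjusted p = 0.0353, and 0.0795 without AKDH replicate 3), whose protein is assigned to complex IV despite its symbol. Of 9 complex III subunits, 3 were called lower and 0 higher (median -0.22), and of 17 ATP synthase subunits, 5 were called lower and 2 higher (median -0.12). The 17 complex IV genes with a Cox symbol had no call and a median of -0.16. Of 4 complex II subunits, Sdha was the 1 called gene and 3 lay below 0. Of 7 complex I assembly factors, Ndufaf1 was the 1 called gene and 4 lay below 0. Of 77 mitochondrial ribosomal protein genes, 8 were called lower and 0 higher (median -0.13). Without AKDH replicate 3, complex I had 3 called lower, complex III 2, ATP synthase 4 and 1 higher, and the mitochondrial ribosome 4 and 1 higher. Mrpl32, a protein of the large mitochondrial ribosomal subunit, was at -0.33, -0.36 and -0.41 in AKDH, against 0.31, 0.15 and 0.25 in AKO, and every AKDH array was lower (-0.60, SE 0.08, adjusted p = 0.00792). Tomm7, a small subunit of the outer membrane translocase, fell by 0.51 (adjusted p = 0.0209).

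Genes of protein synthesis and breakdown were called in both directions, where 0.446% of all genes were called higher and 0.848% lower. Of 61 cytosolic ribosomal protein genes, 7 were called lower and 0 higher, with a median of -0.12. In the proteasome, which degrades tagged proteins, 4 of 19 core subunits were called lower and 0 higher. Of 20 regulatory particle subunits 3 were called higher and 0 lower, with 11 below 0 and a median of -0.015. The difference between these groups was not tested. Without AKDH replicate 3, the cytosolic ribosome had 3 called lower and the proteasome core 2, and the regulatory particle still had 3 called higher. Psma7 of the core was at -0.38, -0.26 and -0.51 in AKDH, against 0.16, 0.20 and 0.26 in AKO, and fell by 0.59 (SE 0.09, adjusted p = 0.0145). Psmd2, a scaffold of the regulatory particle, was at 0.33, 0.36 and 0.34 in AKDH, against -0.01, -0.04 and -0.15 in AKO, and rose by 0.41 (SE 0.04, adjusted p = 0.00397). In both genes the AKDH arrays did not overlap with AKO. The regulatory particle ATPases Psmc4 and Psmc5 rose by 0.31 (adjusted p = 0.0392) and 0.29 (adjusted p = 0.016). Among RNA-binding proteins, 3 of 17 hnRNP genes were called higher, such as Hnrnpr (0.45, adjusted p = 0.0236), and 2 of 10 small nuclear ribonucleoprotein genes lower, such as Snrpg (-0.43, adjusted p = 0.0145). Some zeros depend on the scaling. With array medians set to 0, 2 mitochondrial and 1 cytosolic ribosomal protein genes were called higher, and after quantile normalisation 4 and 1 were, with 1 of complex III. The median of the regulatory particle was above 0 without AKDH replicate 3 (0.012), with array medians set to 0 (0.014) and after quantile normalisation (0.026), and the medians named here for the other groups kept their sign in these settings.

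The remaining named rises were of mixed function. Cetn2, a centrin of the centriole, was at 0.45, 0.46 and 0.21 in AKDH, against -0.23, -0.45 and -0.32 in AKO, with no overlap (0.70, SE 0.11, adjusted p = 0.0122). Lpgat1, which acylates lysophosphatidylglycerol, rose by 0.70 (adjusted p = 0.0145), and the ankyrin repeat gene Ankrd49 rose by 0.69 (adjusted p = 0.00792). Cdkn2aip, which binds the ARF tumour suppressor, rose by 0.64 (adjusted p = 0.00792). Cnpy2, of the endoplasmic reticulum, rose by 0.55 (adjusted p = 0.0108). Sae1, a subunit of the SUMO-activating enzyme, rose by 0.51 and Hint2, a mitochondrial nucleotide hydrolase, by 0.50 (adjusted p = 0.0172 and 0.016). These 7 genes were also called without AKDH replicate 3. Galm, Ppp2r1b, Sike1, Inafm2 and Usp6nl, which rose by 0.49 to 0.66 with all arrays, were not (adjusted p = 0.0502 to 0.0985).

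Among the other falls, S100a6, a calcium-binding protein gene, was at -0.80, -0.74 and -1.19 in AKDH, against 0.27, 0.08 and 0.65 in AKO. The groups were apart (-1.25, SE 0.22, adjusted p = 0.0225), but the call was lost without AKDH replicate 3 (adjusted p = 0.0566). Tbca, a tubulin folding cofactor, was at -0.67, -0.50 and -0.74 in AKDH, against -0.01, 0.00 and 0.27 in AKO. It fell by 0.73 (SE 0.09, adjusted p = 0.00792), and the secreted factor gene Nenf fell by 0.75 (SE 0.13, adjusted p = 0.0218). Bmyc, a Myc relative, fell by 0.65 (adjusted p = 0.0253), the Mediator subunit Med29 by 0.61 (adjusted p = 0.0325) and Gmfg, a regulator of branched actin, by 0.53 (adjusted p = 0.0209). These 5 were called without AKDH replicate 3 as well. Cstb, which inhibits cathepsins, the splicing factor Rbm17 and the lysosomal glycoprotein Creg1 fell by 0.81, 0.61 and 0.59 with all arrays and were not called without that array (adjusted p = 0.0586, 0.0564 and 0.11).

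None of the 6 targeted genes was called. Hoxd9 was at 0.00, 0.04 and -0.09 in AKDH, against 0.41, 0.23 and 0.15 in AKO, and the groups did not overlap, but the difference of -0.28 (SE 0.08) was not called (adjusted p = 0.132). Hoxd11 was at 0.11, -0.20 and -0.24 in AKDH, against 0.47, 0.33 and 0.12 in AKO. It too was lower in every AKDH array without a call (-0.42, SE 0.17, adjusted p = 0.3). Hoxd10 differed by -0.02 (adjusted p = 0.977), and Hoxa9, Hoxa10 and Hoxa11, mutant on both copies in both groups, by -0.07, -0.28 and -0.15 (adjusted p = 0.906, 0.654 and 0.868). Among the homozygous mutants, Hoxd9 was at -0.86 to -0.56 in DKO and -0.70 to -0.66 in AHDK, against -0.26 to -0.13 in WT. Hoxa11 was at -0.63 to -0.37 in AKO and -0.84 to -0.44 in AKDH, against 0.43 to 1.38 in WT. For Hoxa9, Hoxa10, Hoxd10 and Hoxd11 the homozygous mutant arrays overlapped with WT. A probe set outside the changed sequence of an allele does not check the genotype, and the labels do not place these probe sets relative to the alleles. No gene of the HoxD neighbours (11 measured), the HoxA neighbours (9) or the HoxB and HoxC clusters (18) was called, and their medians were 0.06, -0.01 and -0.01.

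Signalling lists of tract development had no called gene. They were the Wnt pathway (35 measured, median -0.06), the FGF pathway (24, median -0.06), BMP and TGF-beta (36, median -0.07), Hedgehog (14, median -0.09), retinoic acid (22, median 0.00) and tract patterning factors (22, median -0.08). Fgf1, a growth factor gene, was at 1.51, 1.50 and 0.54 in AKDH, against -0.31, 0.00 and -0.03 in AKO. Its groups were apart, yet 1.30 was not called with all arrays (adjusted p = 0.0833), and 1.62 was called without AKDH replicate 3 (adjusted p = 0.0372). Fgf1 was also higher in DKO, at 1.50, 1.19 and 0.98, than in WT, at -0.66, -0.75 and 0.42 (1.55, adjusted p = 0.0225).

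**Figure D3:**
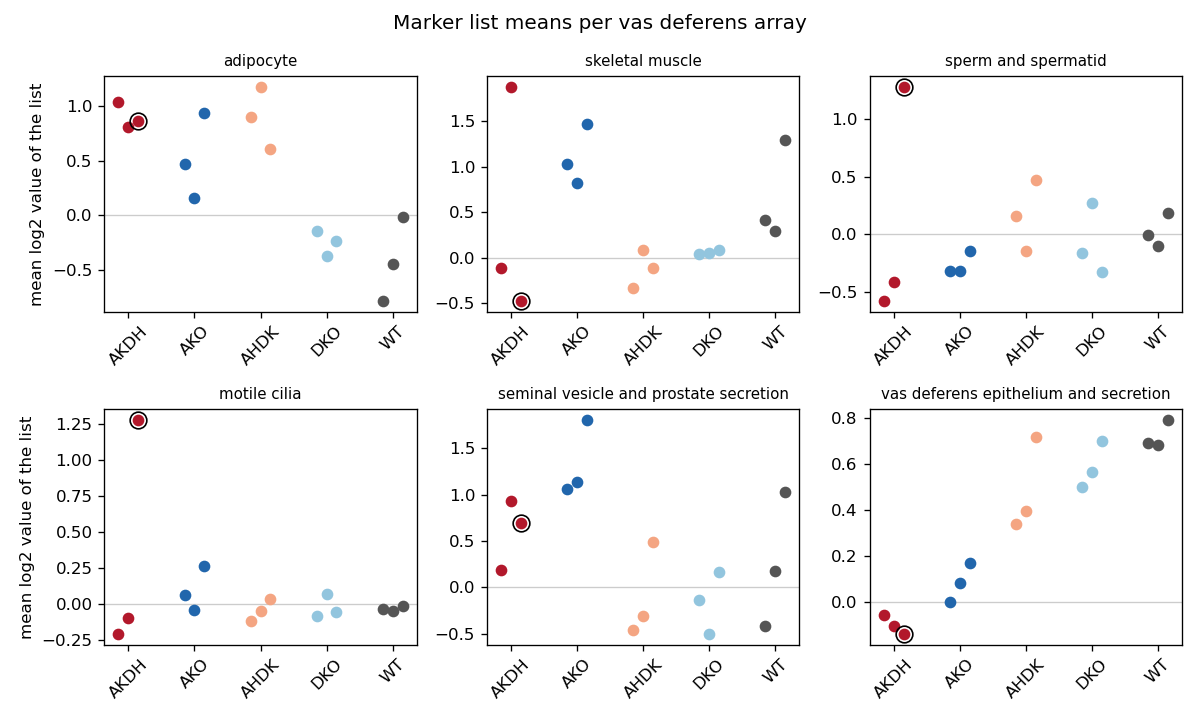
Mean log2 value of the measured genes of 6 marker lists in each vas deferens array (0 is the median of the male arrays for each gene), with 1 point per array and a ring around AKDH replicate 3. That array alone is high for sperm and motile cilia genes, and the AKDH and AKO arrays are uneven for skeletal muscle genes.

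Markers of other cell types varied with the groups and within them. The 25 adipocyte genes had a median of 0.35 with 22 above 0 and no call, and the list averaged 1.04, 0.81 and 0.86 in AKDH, against 0.47, 0.16 and 0.94 in AKO. The 25 skeletal muscle genes had a median of -0.62 with all arrays and -0.14 without AKDH replicate 3, and averaged -0.12, 1.88 and -0.48 in AKDH, against 1.03, 0.82 and 1.47 in AKO. AKDH replicate 2 was the highest of the 6 in muscle genes, and its group mates were the lowest. With the adipocyte and skeletal muscle averages as covariates, 3 genes were called in AKDH minus AKO, all higher, and 1906 had an unadjusted p below 0.05. With the sperm average as covariate 284 were called, 219 of them among the 258. The 33 sperm and spermatid genes had a median of 0.31, which was -0.14 without AKDH replicate 3, and the 33 motile cilia genes 0.26 and -0.17. The 32 smooth muscle genes had a median of -0.08 and the 34 fibroblast and matrix genes -0.09, with Thbs2, a matricellular protein gene, the 1 call among both (0.35, adjusted p = 0.0363). The 25 macrophage and dendritic cell genes had no call and a median of -0.23, with 22 below 0. The covariates themselves vary with genotype or with 1 array. Adipocyte genes averaged -0.38 to -0.15 in DKO and 0.61 to 1.18 in AHDK. Sperm genes averaged 1.28 in AKDH replicate 3 and at most 0.475 in the other vas deferens arrays. The covariate fits therefore cannot separate these markers from genotype or from that array, and all 258 genes kept their sign in them. The part of these markers in the other results was not tested.

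A question that arises from the design is whether losing Hoxd copies does the same with and without the Hoxa genes. The arrays do not answer it cleanly, since AKDH minus AKO removes 1 Hoxd copy and DKO minus WT removes both. The number of Hoxd copies lost and the Hoxa background therefore cannot be told apart between these contrasts. DKO minus WT uses none of the arrays of AKDH minus AKO and removes both Hoxd copies on a background with all Hoxa genes. There 1170 genes were called (5.87%), 1060 with the sign of AKDH minus AKO and 110 with the opposite one. Of the 258 genes called in AKDH minus AKO, 249 (96.5%) had the same sign in DKO minus WT, against 63.8% of all genes, and 157 were called there with that sign and 0 with the opposite one. Across these 258 genes Pearson's r was 0.744 and Spearman's rho 0.826, against 0.397 and 0.426 across all genes. The split between higher and lower genes enters these values. Within the 89 higher genes r was -0.0847 and rho 0.362, and within the 169 lower genes 0.339 and 0.511. Genes are not independent replicates, and the values share the centring on the male arrays. Both contrasts also come from the same fit with a shared estimate of spread per gene, so their calls are not independent. The median size of these genes was 0.385 in AKDH minus AKO, the contrast that chose them, and 0.287 in DKO minus WT, while over all genes it was 0.0923 and 0.1. Cnpy2, for example, differed by 0.55 in AKDH minus AKO and by 0.64 in DKO minus WT (adjusted p = 0.00287), and Tbca by -0.73 and -0.65 (adjusted p = 0.00467).

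**Figure D4:**
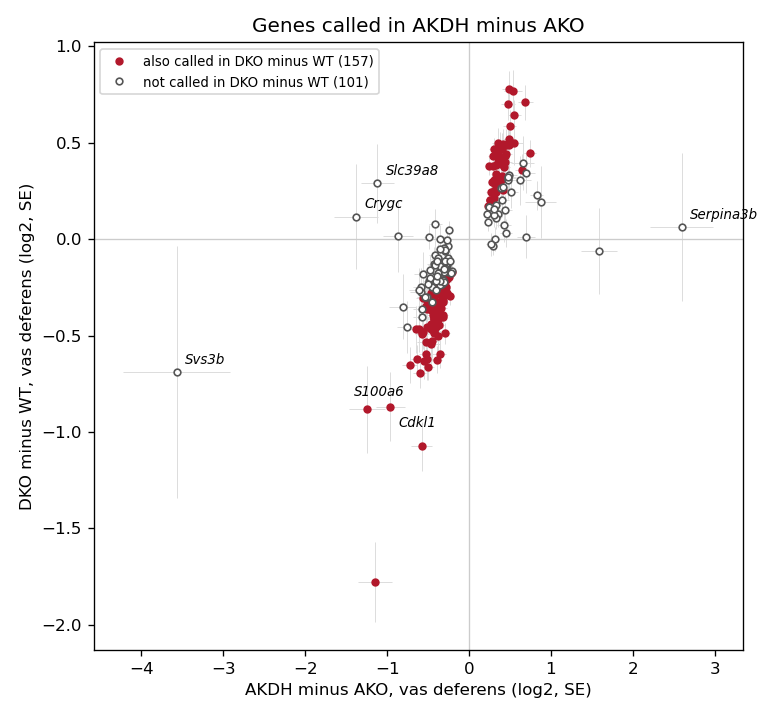
Log2 differences of the 258 genes called in AKDH minus AKO (horizontal axis) and of the same genes in DKO minus WT (vertical axis) in vas deferens, with grey bars for the SE and red points for the 157 also called in DKO minus WT. The points run from lower left to upper right, and Serpina3b, Slc39a8 and Crygc are among those that leave this band.

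The test of the difference between those effects called 1 gene of 19938 (0.00502%), Cwc22, whose DKO arrays alone were high. An adjusted p above the threshold for the other genes does not show that the effects were equal, and 1493 genes had an unadjusted p below 0.05. Setting AKDH minus AKO against AHDK minus DKO, the loss of 1 Hoxa copy in mice without the Hoxd genes, gave a different count. There 26 genes differed (0.13%), 8 with a higher (0.0401%) and 18 with a lower difference (0.0903%) in AKDH minus AKO, or 44 without AKDH replicate 3. AHDK minus DKO itself had 73 calls (0.366%), and 158 of the 258 genes (61.2%) had the same sign there, against 54.6% of all genes. The 5 genes called in both, all with the same sign, were Serpina3b, Ndufaf1, Ivd, Bola1 and Setd7, the last 3 named after their values were seen. Ivd, of leucine breakdown, differed by 0.40 in AKDH minus AKO and 0.39 in AHDK minus DKO, the mitochondrial protein gene Bola1 by -0.49 and -0.52, and Setd7, a lysine methyltransferase, by -0.42 and -0.35.

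Array by array, the called genes placed the AKO arrays beside WT and the AKDH arrays beside the other mutants of Hoxd. The 89 higher genes averaged 0.361, 0.368 and 0.267 in AKDH, against -0.105, -0.107 and -0.127 in AKO, values that chose the genes. In arrays that did not choose them, the same genes averaged 0.251 to 0.277 in AHDK and 0.168 to 0.186 in DKO, against -0.158 to -0.114 in WT. The 169 lower genes averaged -0.189 to -0.130 in AHDK and -0.131 to -0.0915 in DKO, against 0.168 to 0.226 in WT. Every AHDK and DKO array was on the AKDH side of 0 and every WT array on the AKO side. The 18 measured small RNA genes had a median of -0.15 in AKDH minus AKO and no call, and averaged -0.10, -0.09 and -0.24 in AKDH, against 0.19, 0.03 and 0.16 in AKO. They averaged -0.29 to -0.18 in DKO, against 0.01 to 0.07 in WT, with 0.10, -0.50 and -0.18 in AHDK. Their part in the result was not tested, and a handling step shared by the groups with a mutant Hoxd allele cannot be told apart from that allele with the labels used here.

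**Figure D5:**
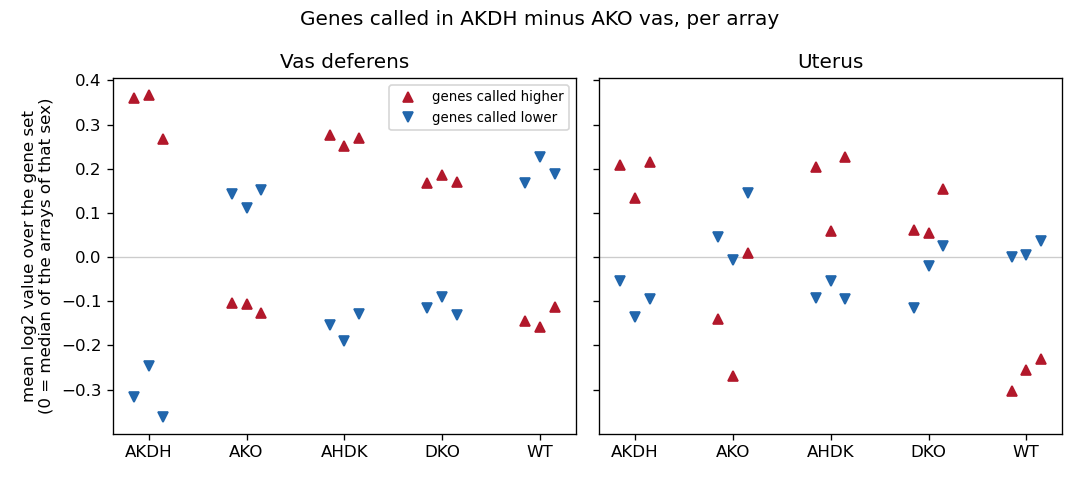
Mean log2 value of the 89 genes called higher (upward triangles) and the 169 called lower (downward triangles) in AKDH minus AKO vas deferens, in each vas deferens array (left) and each uterus array (right), with 0 at the median of the arrays of that sex. In vas deferens, AKDH, AHDK and DKO arrays have the upward triangles above 0, and AKO and WT arrays have them below 0.

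The same genotypes were also compared in uterus, in arrays of other tissue and sex. AKDH minus AKO in uterus had 0 limma calls (0%) and 2063 genes with an unadjusted p below 0.05. Of the 258 genes called in vas deferens, 220 (85.3%) had the same sign in uterus, against 57.9% of all genes, and 91 of these had an unadjusted p below 0.05. Their median size was 0.385 in vas deferens, where they were chosen, and 0.202 in uterus, while over all genes it was 0.0923 and 0.0975. The 89 higher genes averaged 0.208, 0.134 and 0.215 in AKDH uterus, against -0.141, -0.270 and 0.009 in AKO uterus, with no overlap. Cetn2 differed by 0.76 in uterus, Cnpy2 by 0.58 and Ndufaf1 by 0.57, whereas Ndufa6 differed by 0.22 there and by -0.63 in vas deferens. The test of vas deferens against uterus, added after the data were seen, called 4 genes (0.0201%), among them Serpina3b and Ndufa6. Males and females were fitted as separate groups in it, and the array values are centred within each sex. In DKO minus WT of uterus, 174 of the 258 genes (67.4%) had the sign of AKDH minus AKO in vas deferens, against 54.7% of all genes. Above 0 in that uterus contrast lay 93.3% of the 89 higher genes and 46.2% of the 169 lower ones, against 53.9% of all genes.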

How the data were processed

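Total RNA of fresh tissue was copied into cDNA, fragmented, labelled with biotin and hybridised to Affymetrix arrays, per the labels' protocols. The deposited table held log values for 28856 probe sets, taken here as log2, and no source used here gives their log base, summarisation or normalisation. The deposited log2 values are centred, since the median of each probe set was exactly 0 over the 21 male arrays and likewise over the 21 female arrays, so level and signal over background were lost, array medians lay near 0, and the number of arrays limits the precision.

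Probe sets with 1 symbol (21789; 1621 had several and 5446 none) were averaged per gene, which gave 19938 genes. Symbols were updated by gene ID through RefSeq GRCm38.p6 (21698 matched). The fits used limma 3.58.1 under R 4.3.3 (group means over the 15 arrays of a tissue, eBayes, Benjamini-Hochberg over all genes), after a test on simulated data. Nothing says beyond the word biological that animals were separate, so p-values may measure only the spread of these samples. No pair of vas deferens arrays held identical values.

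The members, the 38 gene lists and the tests were chosen with earlier results of these data known. The naming rule took the 6 targeted genes, 15 rises and 15 falls of largest size among called genes with values apart, the 8 largest in each direction called with and without AKDH replicate 3, up to 3 genes of each list with the smallest p, and 6 per side in each difference of effects. Predicted and uncharacterised transcripts, olfactory and vomeronasal receptors and small RNAs were passed over. Not all are described, and genes outside the rule are family examples, called flagged genes and those said to be chosen after their values were seen. Replicate numbers were not used to pair the arrays in the main fit. The correlation of deviations was 0.077, 0.14 and 0.25 for the 3 same-numbered pairs. For the other pairs it was -0.23 to 0.2, and these few values do not settle whether the numbers pair the arrays. Alternatives were other array sets, scalings, filters, covariates and array weights.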

Additional observations from a re-analysis of the deposited data

Results flagged for a closer look

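Genes below are those whose AKDH minus AKO difference in vas deferens differed from another contrast by the test of that difference (limma, adjusted p below 0.05 over all genes). Cwc22, a spliceosome protein gene, was at 0.14, 0.20 and -0.23 in AKDH and 0.10, 0.11 and -0.05 in AKO, but at 1.51, 1.36 and 1.53 in DKO and -0.07, -0.05 and -0.01 in WT. Its AKDH minus AKO difference was -1.53 relative to DKO minus WT (adjusted p = 0.00178) and 1.39 relative to AHDK minus DKO (adjusted p = 0.00482). In uterus its AKDH minus AKO difference was -0.62 with an SE of 0.77, against an SE of 0.10 in vas deferens. Its values thus spread widely within genotypes in uterus, and the source of that spread was not tested.

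Relative to AHDK minus DKO, 5 more named genes had a higher difference in AKDH minus AKO. Dync1i2, a dynein intermediate chain, and Stx6, a syntaxin, were called in AKDH minus AKO itself, and the differences between the effects were 0.607 and 0.458. Plec, Otud7b and Nkiras2 had 0.789, 0.51 and 0.515, and none of the 3 was called in AKDH minus AKO.

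On the lower side, Ndufa6 had -0.846, Usp21, a deubiquitinase, -0.618, Gdpgp1 -0.598 and Nob1, a nuclease of ribosome assembly, -0.535, all 4 called lower in AKDH minus AKO. Ube2k, a ubiquitin-conjugating enzyme, had -0.61. B3galt2, a galactosyltransferase, had -2.07, with 2.20 in AHDK minus DKO and 0.13 in AKDH minus AKO.

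Relative to AKDH minus AKO in uterus, the vas deferens difference was 2.52 for Serpina3b, 1.54 for the predicted gene Gm4988, -0.853 for Ndufa6 and -0.992 for Thsd7b. Gm4988 was at 2.26, 1.61 and 1.16 in AKDH vas deferens, against -0.02, 0.30 and 0.00 in AKO. For Thsd7b the uterus difference was 0.74 and the vas deferens difference -0.26, not called in either tissue.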

How the results depend on the processing

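All 258 genes called in AKDH minus AKO kept their sign under every alternative in which they were tested, as did all 329 of their probe sets taken singly, but the number of calls did not hold. It was 484 after quantile normalisation, 1021 with array weights (AKDH replicate 3 weighed 0.223), 141 with a replicate block, 86 among genes of above-median spread, 3 with adipocyte and skeletal muscle covariates, 0 with only the 6 arrays, and 52 to 240 with 1 array left out. It stayed within 1.5 times of 258 with array medians set to 0, all 21 male arrays, robust eBayes, the sperm covariate and each probe set on its own. Without AKDH replicate 3, the 240 calls were 77 with the block and 421 after quantile normalisation. Against DKO minus WT, 3 genes differed with array medians set to 0, in place of 1. Against AHDK minus DKO, 44 of the genes differed without AKDH replicate 3 and 8 with the block, in place of 26, and AHDK minus DKO had 18 calls with the block, in place of 73. Uterus AKDH minus AKO had 0 to 167 calls with 1 array left out, 4 with the block and 10 after quantile normalisation. The sign of uncalled targeted genes turned in places. Hoxa9 ranged over -0.255 to 0.052 with 1 array left out (above 0 without AKDH replicate 3 or AKO replicate 1) and was 0.0408 with the sperm covariate. Hoxd10 ranged over -0.143 to 0.0862 (above 0 without AKDH replicate 2 or 3 or AKO replicate 2), and was 0.00482 with array medians set to 0 and 0.0685 with the sperm covariate. Hoxa11 was 0.0741 after quantile normalisation. The cause of these shifts was not tested, apart from the fewer arrays or genes that a setting has by construction. Signal over background is unknown after centring, so dim genes could not be set apart.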

Other observations

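Cell cycle genes had a median of 0.18 in AKDH minus AKO (23 of 32 above 0, no call), or 0.27 without AKDH replicate 3, and averaged 0.57, 0.32 and 0.16 in AKDH, against 0.17, 0.16 and 0.18 in AKO, which overlap. The 18 genes of luminal acidification, the work of clear cells, had a median of 0.12 and no call, and averaged 0.50, 0.16 and 0.25 in AKDH, against 0.13, 0.03 and 0.05 in AKO, with no overlap. Defb22, a beta-defensin gene of the sperm coat, was at 0.63, 1.30 and -0.21 in AKDH, against -0.20, 0.00 and -0.16 in AKO, and was called without AKDH replicate 3 (1.08, adjusted p = 0.0443) but not with it (0.69, adjusted p = 0.314). Acaca, the first enzyme of fatty acid synthesis, was called without that array as well (0.41, adjusted p = 0.0454), and was at 0.20 with it.

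Within 20 Mb of the Hoxd cluster, 4 of 457 genes were called (0.875%), namely Atp5g3, Dync1i2, Kbtbd4 and Ndufs3, and within 20 Mb of the Hoxa cluster 1 of 319 (0.313%), Hibadh, against 1.3% of all genes with a position. They are named after their values were seen. The median length of the gene was 13.7 kb for genes called higher and 7.69 kb for genes called lower, against 17.7 kb for all genes.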
